A study of Mus musculus with 378 samples.

Results

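The genes described here are 8 coinhibitory receptors and ligands that are studied less often than PD-1 and CTLA-4: Btla, Cd160, Cd244, Cd274, Cd200, Cd200r1, Lilrb4 and Cd101. They were taken by symbol, all 8 were found, and they make up 8 of the 23420 genes in the expression table. The cells are T cells isolated from B16F10 tumours, a transplanted melanoma line, grown in C57BL/6 mice that were WT or labelled Il27ra KO, a knockout of a chain of the IL-27 receptor. The stated aim was a signature of T cell genes that IL-27 induces within the tumour. The 4 groups were CD8 WT, CD8 Il27ra KO, CD4 WT and CD4 Il27ra KO. Each had 92 to 94 single-cell libraries and 1 population library, made by Smart-seq2, a full-length cDNA method in which each cell is handled in its own well. The protocol text speaks of CD8+ T cells, so CD4 rests on the titles and the lineage genes. Age, sex, tumour stage and the number of animals are not given in the sources used here. Each genotype and cell type was therefore counted as 1 sample, no test between genotypes was possible, and SDs and intervals below run over cells. The titles also carry p3 for CD4 WT and p2 for the other groups, and a word of its own for each group, which were not interpreted. CD4 KO against CD4 WT, and CD8 against CD4 in WT, coincide with the p2 and p3 labels and cannot be told apart from them. Every comparison between groups, CD8 KO against CD8 WT included, likewise coincides with the title words and cannot be told apart from what they mark.

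Values are FPKM, fragments normalized to transcript length and library size, scaled between libraries with TMM factors by the authors. Levels are given as log2(FPKM + 1), and "above 0" means any FPKM over 0. Cells with at least 1000 genes above 0 were kept: 67 CD8 WT, 74 CD8 KO, 79 CD4 WT and 78 CD4 KO. They had a median of 2919, 2797, 2307 and 2650.5 genes above 0, and about 268056, 309888, 208763 and 269403 fragments by an estimate from the steps in low FPKM values. Single cells labelled KO did not hold less RNA of Il27ra, the targeted gene. Among CD8 cells it was above 0 in 38.8% of WT and 52.7% of KO, and among CD4 cells in 48.1% and 52.6%. Its log2 level in the CD8 population libraries was 5.60 in WT and 6.52 in KO, and in the CD4 ones 8.01 and 6.59. Directions below therefore follow the genotype label alone. CD3 chain, Cd2 or Lck RNA was found in 59 of 67, 71 of 74, 77 of 79 and 77 of 78 cells. At least 1 CD8 chain was found in 63 CD8 WT and 72 CD8 KO cells, and Cd4 in 63 CD4 WT and 70 CD4 KO cells.

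Coinhibitory receptors dampen T cell activation after they bind ligands on neighbouring cells, and many of them carry tyrosine motifs in their tails that recruit phosphatases such as SHP-1 and SHP-2. PD-1, the product of Pdcd1, is induced by antigen receptor signals through the NFAT factors and stays high on chronically stimulated T cells in tumours, often together with Lag3, Havcr2, Tigit and Ctla4. Of the genes here, Btla and Cd160 encode receptors for the TNF receptor family member HVEM (gene Tnfrsf14). Cd244 encodes a SLAM family receptor for CD48. Lilrb4 and Cd101 encode immunoglobulin superfamily receptors. Cd200r1 encodes the receptor for CD200, itself the product of Cd200, and Cd274 encodes PD-L1, a ligand of PD-1.

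Of the 8 genes, 4 followed Pdcd1 from cell to cell in at least 1 group and 4 in none. In CD8 WT cells alone 52.4% of all genes tested did so, so 4 of 8 is not a larger share. With following set as a Spearman rho of at least 0.2 in genes above 0 in at least 10% of a group's cells, none of the 8 did so in all 4 groups. Cd101 did so in both WT groups and Cd200r1 in both CD4 groups. Cd244 and Lilrb4 reached it in CD8 WT cells, where their partial rho, given the number of genes detected per cell, was 0.06 and 0.08. Btla, Cd160, Cd274 and Cd200 did so in no group. Of all genes tested, 52.4% reached this rho in CD8 WT, 13% in CD8 KO, 19.7% in CD4 WT and 7.36% in CD4 KO. Members that did so numbered 3 of 8, 0 of 7, 2 of 5 and 1 of 6, so the CD8 WT count was no larger a share than among all genes. Promoter sequences of Pdcd1 and of 3 of these genes are printed for comparison: Cd101 and Cd244, which followed Pdcd1 in CD8 WT cells, and Cd274, which did not. Each line holds the 250 bases before a transcript start, 5′ to 3′ on the gene's own strand, from RefSeq on GRCm38.p6, which is the mm10 assembly. Capitals mark matches on either strand to TTCNNNGAA (a STAT dimer element), an AP-1 element (TGA, any base, then TCA) or GGAAA (the core bound by NFAT). The positions are chr1:94052554-94052803 on the minus strand for Pdcd1, chr3:101029554-101029803 on the minus strand for Cd101, chr1:171558943-171559192 on the plus strand for Cd244 and chr19:29367188-29367437 on the plus strand for Cd274.
Pdcd1: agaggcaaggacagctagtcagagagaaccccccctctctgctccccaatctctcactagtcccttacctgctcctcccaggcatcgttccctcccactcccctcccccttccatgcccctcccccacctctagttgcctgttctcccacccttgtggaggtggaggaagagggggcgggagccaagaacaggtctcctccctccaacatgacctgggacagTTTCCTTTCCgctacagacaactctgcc
Cd101: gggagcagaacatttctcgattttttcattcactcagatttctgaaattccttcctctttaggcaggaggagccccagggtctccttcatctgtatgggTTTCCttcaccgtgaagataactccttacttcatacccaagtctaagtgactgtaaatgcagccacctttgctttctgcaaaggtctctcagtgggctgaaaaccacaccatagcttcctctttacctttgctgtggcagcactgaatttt
Cd244: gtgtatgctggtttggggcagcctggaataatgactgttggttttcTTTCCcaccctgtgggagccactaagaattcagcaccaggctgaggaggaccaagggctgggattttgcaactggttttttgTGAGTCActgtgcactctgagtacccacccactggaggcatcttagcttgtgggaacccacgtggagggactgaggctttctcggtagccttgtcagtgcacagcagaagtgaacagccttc
Cd274: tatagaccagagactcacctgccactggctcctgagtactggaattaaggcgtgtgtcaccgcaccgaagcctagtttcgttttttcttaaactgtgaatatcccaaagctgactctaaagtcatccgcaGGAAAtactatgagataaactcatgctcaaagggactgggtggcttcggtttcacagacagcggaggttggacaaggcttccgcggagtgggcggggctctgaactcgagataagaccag

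The Pdcd1 window held 2 adjacent GGAAA matches just before the start, both read on the opposite strand. Cd101 and Cd274 held 1 each. Cd244 held 1, and an AP-1 match downstream of it. Windows of Btla and Cd200 held none of the 3 motifs. Cd160 has 2 windows in the table, of which the one at chr3:96814522-96814771 held a STAT dimer match and 1 GGAAA, and the other none. Over 32851 windows of the same length, 7.02% held TTCNNNGAA, 6.75% the AP-1 element and 55.6% GGAAA. The last is thus common, and its presence did not separate the genes that followed Pdcd1 from Cd274. Windows for Cd200r1 and Lilrb4 were not analysed here.

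The HVEM receptors differed between cell types. Cd160 lies at chr3:96798763-96829351 on mm10 in the GENCODE M21 annotation, as do all gene positions here. Of the 8 genes it had the largest difference between CD8 and CD4 cells in both genotypes. Cd160 RNA was above 0 in 25 of 67 CD8 WT cells (37.3%, exact 95% Clopper-Pearson interval 25.8 to 49.99%), where positive cells had 1.70 FPKM at the lowest, a median of 201.7 and 1365 at the highest. In CD8 KO cells it was above 0 in 15 of 74 (20.3%, 11.8 to 31.2%), at 10.2 to 511 FPKM with a median of 157.2. None of 79 CD4 WT cells had it, which allows a share of up to 3.80%, and 1 of 78 CD4 KO cells had it, at 1.46 FPKM. The intervals and this limit cover counting error only, since reads without molecular identifiers are not independent molecules. Mean log2 levels were 2.71 ± 3.80 (SD, n = 67) in CD8 WT and 1.37 ± 2.84 (n = 74) in CD8 KO cells. The values overlapped over most of their range, and the groups differed mainly in how many cells were at 0. The population libraries gave another order: 94.1 FPKM in CD8 WT, 224.3 in CD8 KO, 0 in CD4 WT and 5.14 in CD4 KO.

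Btla, at chr16:45224315-45257670, was found in all 4 groups. Btla RNA was above 0 in 9 of 67 CD8 WT cells (13.4%, interval 6.33 to 23.97%), at 1.37 to 994 FPKM with a median of 314.75 in these cells. In CD8 KO cells 21 of 74 had it (28.4%, 18.5 to 40.05%), at 0.93 to 939.6 FPKM with a median of 140.9. CD4 WT cells had it in 13 of 79 (16.5%), with a top value of 931 FPKM. CD4 KO cells had it in 12 of 78 (15.4%), with a median of 37.6 and a top value of 911. Mean log2 levels were 0.95 ± 2.66 (SD, n = 67), 1.78 ± 3.13 (n = 74), 1.08 ± 2.68 (n = 79) and 0.73 ± 2.16 (n = 78). The CD8 KO share was thus the highest of the 4, and its interval overlapped that of CD8 WT. The population libraries held 38.4, 117.8, 72.5 and 85.4 FPKM in the same order of groups. Tnfrsf14, the gene of HVEM itself, was above 0 in 22.4%, 21.6%, 17.7% and 17.9% of cells. Btla and Cd160 were found together in 5 CD8 WT cells and 4 CD8 KO cells, where 3.36 and 4.26 would be found if they were independent, so both counts lay close to independence.

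Cd244, at chr1:171559193-171609746, leaned to CD8 cells as well. Among CD8 WT cells 14 of 67 had it (20.9%), at 6.01 to 589 FPKM with a median of 134.9. In CD8 KO cells 9 of 74 had it (12.2%), at 35.3 to 334.4 FPKM with a median of 228.7. Only 2 of 79 CD4 WT cells had it, both at under 1.5 FPKM, and 4 of 78 CD4 KO cells, from 0.78 to 661 FPKM. Its means were 1.35 ± 2.77 (SD, n = 67) and 0.88 ± 2.42 (n = 74) in CD8 WT and KO, and 0.03 ± 0.21 (n = 79) and 0.33 ± 1.59 (n = 78) in CD4 WT and KO. The population libraries held 31.1, 46.3, 4.29 and 15.1 FPKM. Its ligand gene Cd48 was above 0 in 53.2 to 72.97% of cells of the 4 groups, and 12 of the 14 Cd244-positive CD8 WT cells had Cd48 as well, with 8.78 if independent. In CD8 KO cells 7 of 9 did, with 6.57 if independent. Among pairs of the 8 genes, Cd244 and Cd200r1 had a rho of 0.35 over CD8 WT cells and 0.43 over CD8 KO cells, a pair chosen after its values were seen. Both went, in CD8 KO, with cells that held at least 3 markers of other cell types: Cd244 was above 0 in 4 of 14 of these and 5 of 60 others, and Cd200r1 in 5 of 14 and 3 of 60. In CD8 WT both went the other way, with Cd244 in 3 of 21 such cells and 11 of 46 others, and Cd200r1 in 2 of 21 and 10 of 46. The part of these cells in the rho was not tested.

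Lilrb4 was found at like shares in both CD8 groups and in fewer CD4 cells. It encodes a receptor with inhibitory tail motifs that is best known from myeloid cells and mast cells, and lies at chr10:51490956-51496611. Among CD8 WT cells 24 of 67 had it (35.8%), at 2.75 to 1332 FPKM with a median of 123.1. CD8 KO cells had it in 27 of 74 (36.5%), with a median of 120.99 and a top value of 2929. The shares were lower in CD4 cells, at 12 of 79 in WT (15.2%) and 21 of 78 in KO (26.9%), but positive CD4 cells held more of it, with medians of 545 and 718 FPKM. Mean log2 levels were 2.34 ± 3.53 (SD, n = 67), 2.48 ± 3.69 (n = 74), 1.26 ± 3.19 (n = 79) and 2.10 ± 3.82 (n = 78). Population levels were higher in CD4 than in CD8 within each genotype: 127.4 FPKM in CD8 WT, 358.55 in CD8 KO, 285.5 in CD4 WT and 881 in CD4 KO. Gp49a, a close paralog that lies beside it at chr10:51480632-51486703, was above 0 in 20, 22, 17 and 22 cells. The pair was found together in 15, 18, 6 and 18 cells, against 7.16, 8.03, 2.58 and 5.92 if independent. Reads can be shared between these close paralogs, so their separate values are uncertain. The pairing with Gp49a was added after the data were seen.

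Cd101, at chr3:100993529-101029556, encodes a receptor used in mice as a mark of late, terminally exhausted CD8 T cells. Cd101 RNA was above 0 in 17 of 67 CD8 WT cells (25.4%, interval 15.5 to 37.5%), at 4.76 to 1229 FPKM with a median of 111.01. In CD8 KO cells 12 of 74 had it (16.2%, 8.67 to 26.6%), at 0.90 to 439 FPKM with a median of 45.5. The CD4 groups had it in 15 of 79 WT (18.99%, median 169.5 FPKM, top 802) and 10 of 78 KO cells (12.8%, median 80.3, top 799). The single-cell shares were thus lower in both groups labelled KO, with intervals that overlapped those of WT. Means were 1.65 ± 3.02 (SD, n = 67), 0.83 ± 2.20 (n = 74), 1.23 ± 2.78 (n = 79) and 0.77 ± 2.21 (n = 78). The population libraries went the other way, with 24.3 FPKM in CD8 WT against 78.8 in CD8 KO, and 15.85 in CD4 WT against 56.6 in CD4 KO.

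The receptor gene Cd200r1 was found in more cells of each group than its ligand gene Cd200. Cd200r1, at chr16:44765736-44794978, lies in a cluster of related receptor genes, so that its reads may in part be shared. It was above 0 in 12 of 67 CD8 WT cells (17.9%, median 59 FPKM, top 430.3) and 8 of 74 CD8 KO cells (10.8%, median 545, top 1316). The CD4 groups had it in 15 of 79 WT (18.99%, median 155.4 FPKM, top 1035) and 19 of 78 KO (24.4%, median 209.2, top 1734). Cd200, at chr16:45382135-45409053, was above 0 in 7 of 67 (10.4%), 7 of 74 (9.46%), 3 of 79 (3.80%) and 9 of 78 cells (11.5%), with top values of 143.8, 1046, 1058 and 1245 FPKM. Means of Cd200r1 were 0.95 ± 2.27 (SD, n = 67), 0.89 ± 2.66 (n = 74), 1.29 ± 2.92 (n = 79) and 1.83 ± 3.48 (n = 78), and those of Cd200 lay between 0.33 ± 1.70 in CD4 WT and 0.95 ± 2.69 in CD4 KO. Population libraries held 45.5, 119.55, 162.04 and 232.1 FPKM of Cd200r1 and 7.12, 80.1, 33.7 and 74.8 FPKM of Cd200. Ligand and receptor RNA were in the same cell in 1, 3, 2 and 4 cells of the 4 groups, where 1.254, 0.757, 0.57 and 2.19 would be found if independent. Cd200 was above 0 in 4 of 14 CD8 KO cells with at least 3 markers of other cell types and 3 of 60 others. The counts of pairs are too small to read a pattern from.

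Cd274, at chr19:29367455-29388095, was the most frequent of the 8 genes in CD4 cells. Cd274 RNA was above 0 in 18 of 67 CD8 WT cells (26.9%), 21 of 74 CD8 KO cells (28.4%), 31 of 79 CD4 WT cells (39.2%) and 34 of 78 CD4 KO cells (43.6%). Many of the CD8 values were very low. Positive cells had medians of 3.57 FPKM in CD8 WT and 2.98 in CD8 KO, against 21.5 in CD4 WT and 84.8 in CD4 KO, and top values of 356.35, 1547, 578 and 811. Above 10 FPKM it was found in 11.9%, 13.5%, 22.8% and 33.3% of cells. Among all cells with it, 8 of the 18 CD8 WT cells and 9 of the 21 CD8 KO cells rested on fewer than 2.5 estimated fragments, against 4 of 31 and 5 of 34 CD4 cells. Cells were also thinned to 100000 estimated fragments, a step added after the data were seen that left out 2, 1, 1 and 0 shallower cells. The expected shares were 20.9%, 19.9%, 33.9% and 39.01%, against 27.7%, 28.8%, 38.5% and 43.6% unthinned in the same cells. The CD4 groups thus kept the higher shares. Mean log2 levels were 0.87 ± 1.89 (SD, n = 67), 1.23 ± 2.71 (n = 74), 1.79 ± 2.73 (n = 79) and 2.5 ± 3.38 (n = 78). Population libraries held 12.5 FPKM in CD8 WT, 97.7 in CD8 KO, 74.6 in CD4 WT and 114.25 in CD4 KO.

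**Figure D1:**
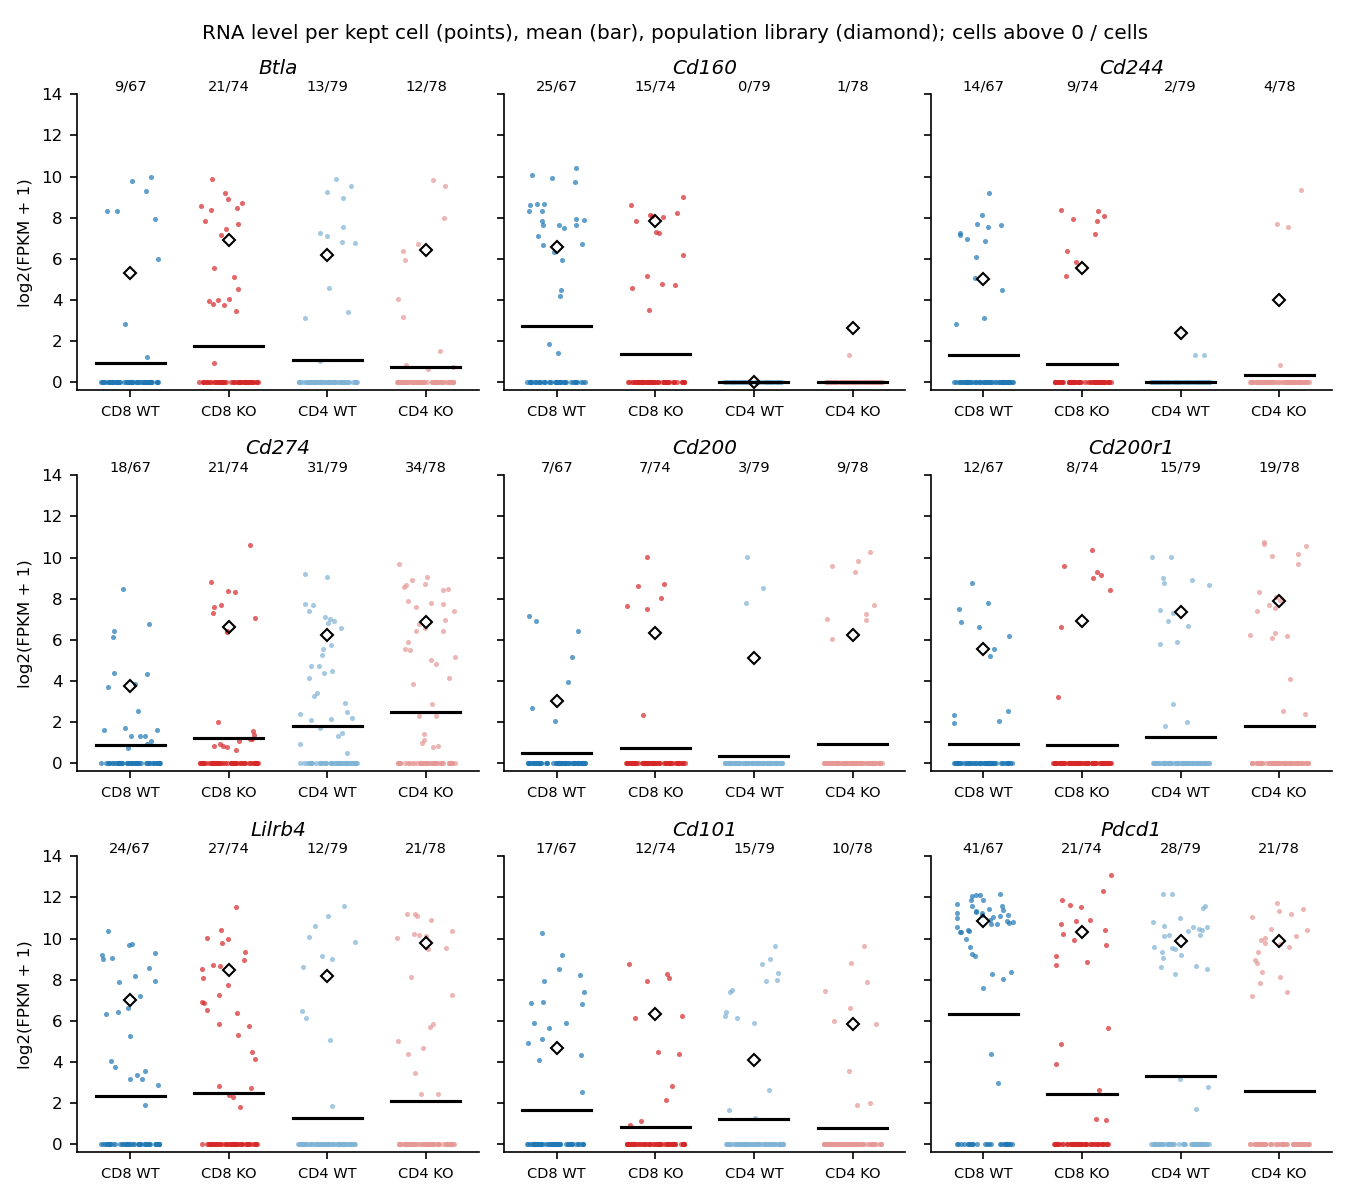
log2(FPKM + 1) of each of the 8 genes and of Pdcd1 (y axis) in every kept cell (points), by group (x axis); bars are means over cells, diamonds are the single population library, and the numbers above each group are cells above 0 and all cells. Cd160 points lie in the CD8 groups, apart from 1 CD4 KO cell, while Cd274 has more points above 0 in the CD4 groups, although its highest point is a CD8 KO cell.

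Per cell, 17.9% of CD8 WT, 13.5% of CD8 KO, 34.2% of CD4 WT and 19.2% of CD4 KO cells had none of the 8 genes, and 29.9%, 20.3%, 11.4% and 16.7% had at least 3. CD8 WT cells with Pdcd1 held a mean of 2.39 of them and those without it 1.08. CD8 KO cells showed no such excess, at 1.43 with Pdcd1 and 1.70 without. In CD4 cells the means were 1.54 and 0.94 in WT, and 1.76 and 1.28 in KO. The number per cell also went with the number of genes detected, with a rho of 0.58, 0.35, 0.36 and 0.54 over the cells of the 4 groups.

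Following Pdcd1 was read within each group, over cells of 1 sample that share preparation and differ in depth. Pdcd1 was above 0 in 41 of 67 CD8 WT cells (61.2%), 21 of 74 CD8 KO cells (28.4%), 28 of 79 CD4 WT cells (35.4%) and 21 of 78 CD4 KO cells (26.9%). Cells with it also held more detected genes: medians were 3676 with and 2461.5 without in CD8 WT, 3171 and 2777 in CD8 KO, 2579.5 and 2145 in CD4 WT, and 2751 and 2635 in CD4 KO. This gap is widest in CD8 WT cells, where the 3 genes at or above a rho of 0.2 were Cd101 at 0.40, Lilrb4 at 0.31 and Cd244 at 0.27. A partial rho, which removes the part that goes with the number of genes above 0 in the cell, brought the shares of all genes tested to 7.65%, 7.89%, 7.57% and 5.32%, against 1 of 8, 0 of 7, 2 of 5 and 0 of 6 of the genes described here. Lag3, Havcr2, Tigit and Ctla4, the yardsticks, had partial rho of 0.48 to 0.64 in CD8 WT cells, where the highest of the 8 genes, Cd101, had 0.22. Partial rho of the yardsticks was 0.38 to 0.56 in CD8 KO and 0.25 to 0.37 in CD4 WT, but -0.01 to 0.16 in CD4 KO. Their plain rho in CD4 KO was 0.04 to 0.19, so no yardstick reached 0.2 there.

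Cd101 had the highest rho with Pdcd1 of the 8 genes in CD8 WT cells. Its rho was 0.40 in CD8 WT (partial 0.22), 0.18 in CD8 KO (0.13), 0.33 in CD4 WT (0.30) and 0.11 in CD4 KO (0.09), positive in each. Of CD8 WT cells with Pdcd1, 16 of 41 had Cd101 (39.02%, interval 24.2 to 55.5%), against 1 of 26 without (3.85%, 0.10 to 19.6%). CD4 WT cells gave 10 of 28 (35.7%, 18.6 to 55.9%) and 5 of 51 (9.80%, 3.26 to 21.4%). Over 28 CD8 WT cells, a single random draw in which those with and without Pdcd1 were matched on genes detected, its rho was 0.19. In CD4 WT cells matched the same way it stayed at 0.34.

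Cd200r1 followed Pdcd1 in CD4 cells, with a rho of 0.35 in WT (partial 0.24) and 0.22 in KO (0.19). CD4 WT cells had it in 11 of 28 with Pdcd1 (39.3%, interval 21.5 to 59.4%) and 4 of 51 without (7.84%, 2.18 to 18.9%). In CD4 KO cells it was above 0 in 9 of 21 with Pdcd1 (42.9%, 21.8 to 65.98%) and 10 of 57 without (17.5%, 8.75 to 29.9%). Its rho in CD8 cells was 0.15 in WT (partial 0.12) and 0.17 in KO (0.14), so that it too was positive in each group. Cd200r1 also went with markers of other cell types in 3 of the groups. It was above 0 in 5 of 14 CD8 KO cells with at least 3 markers from the macrophage, class II, dendritic or melanoma lists and 3 of 60 others. The same was seen in 9 of 25 CD4 WT cells with such markers and 6 of 54 others, and in 9 of 22 and 10 of 56 CD4 KO cells. Whether reaching 3 markers went with the number of genes detected was not tested. Without the cells with 3 or more such markers, the rho of Cd200r1 with Pdcd1 was 0.17 in CD4 WT and 0.18 in CD4 KO, under the threshold. Macrophage genes were above 0 in 7 of 79 CD4 WT and 9 of 78 CD4 KO cells and class II genes in 24 and 22, with log2 levels of the summed class II FPKM of up to 10.8 and 17.3. Xcr1 of the dendritic list was above 0 in 38 CD4 WT and 38 CD4 KO cells, at medians of 2.15 and 1.63 FPKM. Melanoma genes were above 0 in 77 and 74 of the CD4 cells, mostly at low values, with median log2 sums of 3.44 and 3.20. Tyr had mean log2 levels of 3.21 and 2.95, and the other melanoma genes at most 0.44. The part of such RNA in the Cd200r1 values was not tested beyond leaving these cells out. It also went with Foxp3, the factor of regulatory T cells: 12 of 30 CD4 WT cells with Foxp3 had it (40%, 22.7 to 59.4%) and 3 of 49 without (6.12%, 1.28 to 16.9%). In CD4 KO cells these were 12 of 39 and 7 of 39.

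Cd244 and Lilrb4 followed Pdcd1 in CD8 WT cells before depth was considered. Cd244 was above 0 in 13 of 41 cells with Pdcd1 (31.7%) and 1 of 26 without (3.85%), and Lilrb4 in 19 of 41 (46.3%) and 5 of 26 (19.2%). Their partial rho was 0.06 and 0.08. Their rho in CD8 KO cells was 0.06 and -0.11.

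Btla and Cd274 had a negative rho with Pdcd1 in CD8 KO cells, and Btla in CD4 WT cells as well. Btla had a rho of -0.04 in CD8 WT, -0.20 in CD8 KO, -0.19 in CD4 WT and 0.11 in CD4 KO. It was above 0 in 3 of 21 CD8 KO cells with Pdcd1 (14.3%) and 18 of 53 without (33.96%), and in 2 of 28 CD4 WT cells with Pdcd1 (7.14%) and 11 of 51 without (21.6%). Cd274, the PD-1 ligand gene, had a rho of 0.10, -0.23, -0.05 and -0.03, and in CD8 KO cells it gave the same counts as Btla, 3 of 21 and 18 of 53. Elsewhere its rho was near 0, and its share was 29.3% with and 23.1% without Pdcd1 in CD8 WT, and 47.6% and 42.1% in CD4 KO. Cd274 and Pdcd1 were found together in 12 CD8 WT, 10 CD4 WT and 10 CD4 KO cells, against 11.01, 10.99 and 9.15 if independent, and in 3 CD8 KO cells against 5.96. Cd160 had a rho of 0.06 in CD8 WT and -0.10 in CD8 KO. Cd200 reached 0.25 in CD8 KO cells, where it was above 0 in 7 of 74 cells and so under the 10% minimum, and 0.19, 0.07 and 0.17 in the other groups.

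**Figure D2:**
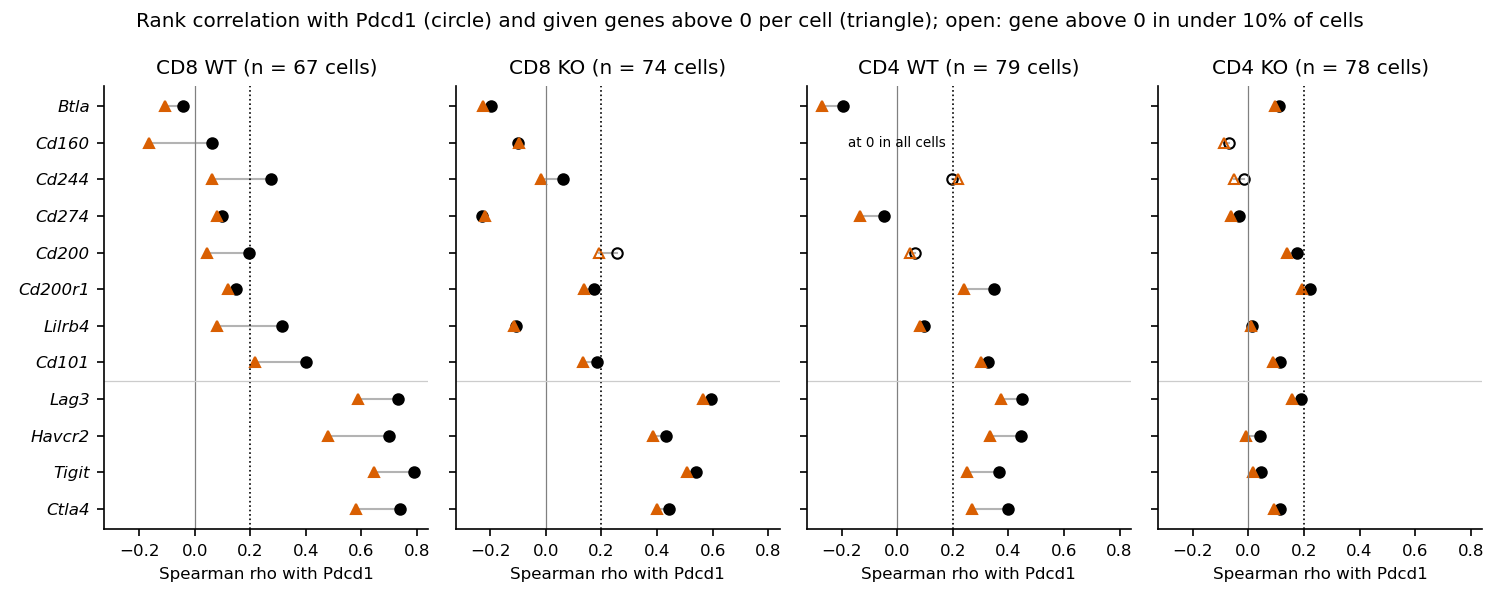
Spearman rho with Pdcd1 (x axis, circles) and partial rho given the number of genes above 0 per cell (triangles) for the 8 genes and for Lag3, Havcr2, Tigit and Ctla4, by group; open symbols are genes above 0 in under 10% of cells and the dotted line is 0.2. Of the 8 genes, Cd101 lies at 0.40 and 0.33 in the WT groups, while the circles of all 4 yardsticks lie higher than its circle in both WT groups and in CD8 KO.

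**Figure D3:**
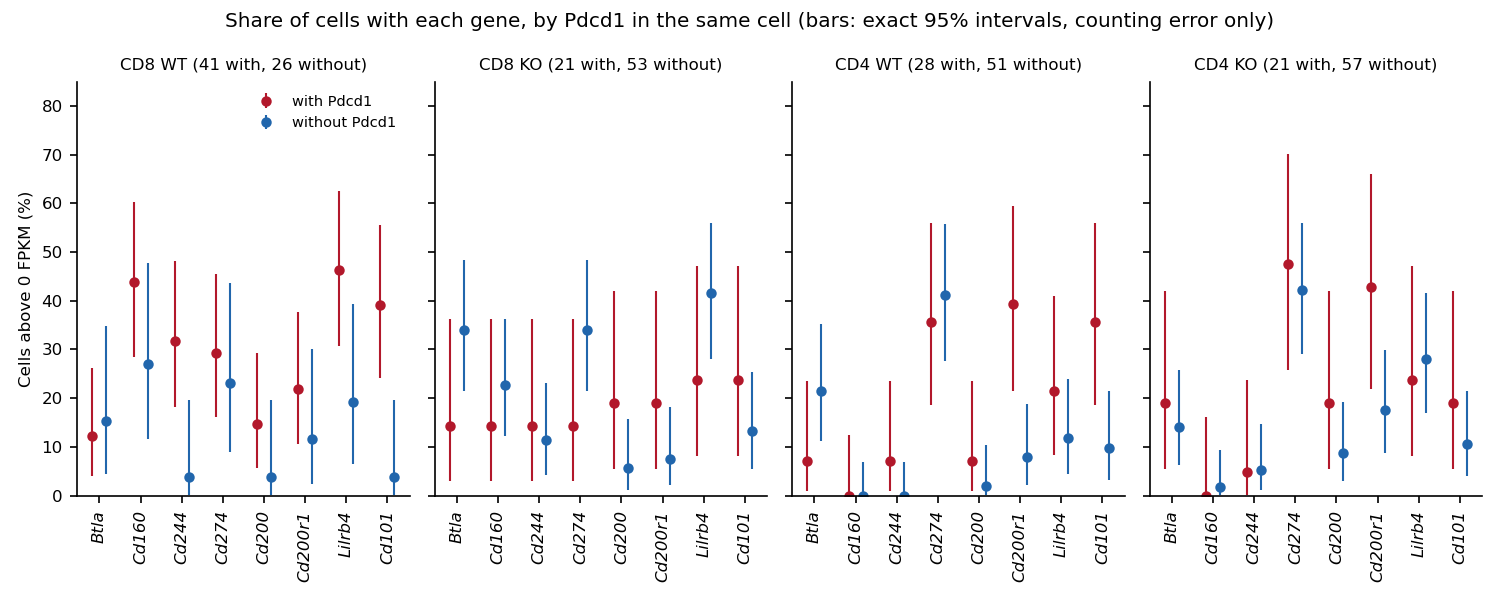
Percent of cells above 0 FPKM (y axis) among cells with Pdcd1 (red) and without it (blue), by gene and group, with exact 95% intervals that cover counting error only. Cd101 stands at 39.02% against 3.85% in CD8 WT, while Btla in CD8 KO stands at 14.3% against 33.96%.

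The genes whose cell-to-cell pattern was most like each member were sought among 3613 genes by the mean rho over the 4 groups, for members above 0 in at least 10% of cells in each. Lilrb4 was nearest to Gp49a (0.56), then Il10ra and Ccl5 (both 0.34). Cd274 was nearest to Gbp6 (0.28), Zbp1 (0.26) and Gbp2 (0.25). Cd200r1 was nearest to Plekha2 (0.30), Pigx and Leprot (both 0.29). Cd101 was nearest to Srp54c (0.30), Mtmr12 and Tigit (both 0.29), and Btla to Evl (0.28), Rps21 (0.26) and Bzw2 (0.25). For Pdcd1 they were Lag3, Bhlhe40 (both 0.49) and Tigit (0.44), so that among the members' lists Tigit was shared with that of Cd101. These rho were not adjusted for the number of genes detected, and each list holds the 3 highest of 3613.

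Between the genotype labels, single cells and population libraries gave different accounts. Cd160 was the 1 gene of 8 whose mean log2 level was at least 1 lower in CD8 KO cells, with a difference of -1.34, where 3.82% of genes tested were as far below. None was at least 1 higher, against 5.94% of genes tested. Cd101 differed by -0.82, Cd244 by -0.46, Cd200r1 by -0.06, Lilrb4 by 0.14, Cd200 by 0.20, Cd274 by 0.36 and Btla by 0.83, with a median of 0.04 over the 8 and -0.08 over all genes tested. The values of Cd200r1 and Cd200 depended on the setting: without cells holding at least 3 markers of other cell types they differed by -0.93 and -0.16, and by the log2 of mean FPKM by 1.62 and 2.32. Cd274 differed by 2.08 by the log2 of mean FPKM. Pdcd1 differed by -3.92 in single cells and by -0.51 in the population libraries. In the population libraries, however, 7 of the 8 were at least 1 higher in CD8 KO, against 21.5% of genes tested, from 1.24 for Cd160 to 3.32 for Cd200, with Cd244 at 0.56. The sign for Cd160 was thus opposite in the population libraries. With libraries that had no B2m or no Cd3 gene left out, which kept 56 CD8 WT and 71 CD8 KO cells, Cd101 at -1.11 and Cd244 at -1.03 passed the same size as well, beside Cd160 at -1.81. In a population library, fewer cells of a type and less RNA per cell cannot be told apart. The median log2 level of class II genes, markers of antigen-presenting cells, was 5.52 in the CD8 WT and 12.3 in the CD8 KO population library. That of macrophage genes was 0 and 5.80, of dendritic genes 3.24 and 6.41, of NK genes 3.14 and 4.73, and of melanoma genes 11.1 and 3.42. The NK genes went different ways in these libraries: Klrb1c from 3.14 to 7.46, Ncr1 from 0 to 4.13 and Eomes from 5.52 to 4.73. The part of all these markers in the population differences was not tested. In single CD8 WT and CD8 KO cells, macrophage genes were above 0 in 9 of 67 and 10 of 74, class II genes in 12 and 13, NK genes in 33 and 19, and melanoma genes in 66 and 72, with B cell markers at 0 in both groups. Of the NK genes, Eomes was above 0 in 29 and 14 cells, Klrb1c in 4 and 7 and Ncr1 in 2 and 1. Of the melanoma genes, Tyr had mean log2 levels of 3.31 and 3.02, Pmel 0.44 and 0.22, Dct 0.19 and 0.15, Tyrp1 0.28 and 0, and Mlana 0 in both. At least 3 markers of other cell types were found in 21 CD8 WT and 14 CD8 KO cells. Of the 7 macrophage markers 5 were above 0 in some cell of each group, with F4/80 (Emr1) at 0 in both, and log2 sums reached 9.76 in CD8 WT and 11.7 in CD8 KO. All 4 class II genes were seen, with log2 sums of up to 17.6 and 17.02.

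In CD4 cells the largest difference was smaller than in CD8 cells, but the median over the members tested was higher, at 0.58 against 0.04. None of the 6 genes tested was at least 1 lower in KO, against 0.342% of all genes tested, and none at least 1 higher, against 7.73%. Lilrb4 differed by 0.84, Cd274 by 0.71, Cd200 by 0.61, Cd200r1 by 0.54, Btla by -0.34 and Cd101 by -0.46, with a median of 0.58, against 0.17 over all genes. Cd160 and Cd244 were above 0 in under 10% of cells of both groups. The population libraries had 5 of the 8 at least 1 higher in KO, where 17.6% of genes tested were: Cd160 by 2.62, Cd101 by 1.77, Lilrb4 by 1.62, Cd244 by 1.61 and Cd200 by 1.13. Here the class II median was 10.9 in WT and 10.6 in KO, and the NK median 0 and 3.30. Of the NK genes, Klrb1c rose from 0 to 5.18 and Ncr1 from 0 to 3.30, while Eomes was 0 in both. The macrophage median was 5.22 in WT and 3.29 in KO, the dendritic one 4.86 and 3.32, and the melanoma one 3.78 and 2.52. The part of these genes in the CD4 population differences was not tested.

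**Figure D4:**
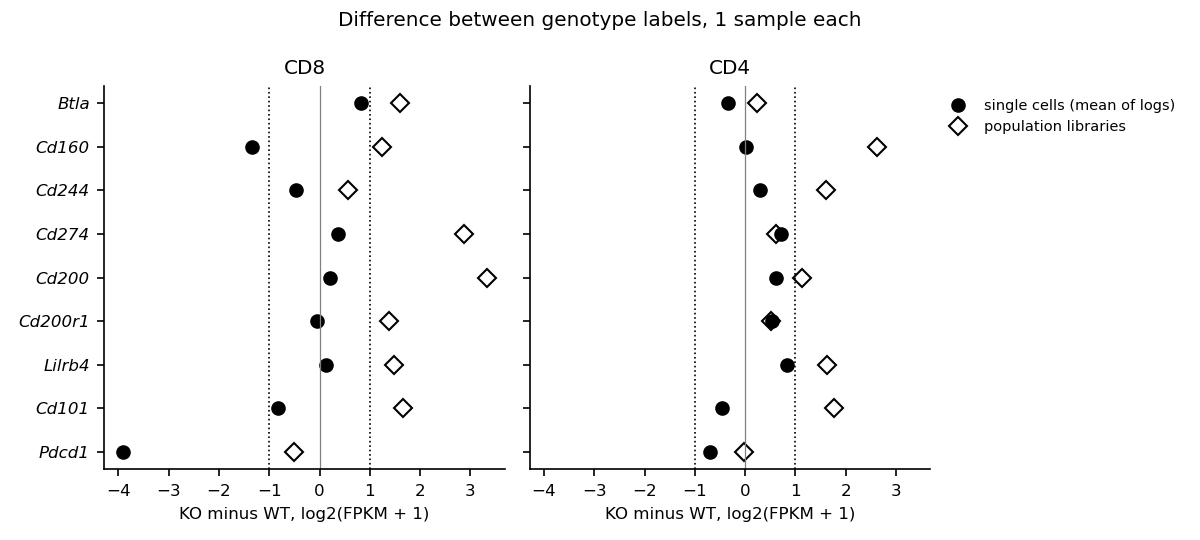
Difference of log2(FPKM + 1), KO minus WT (x axis), for the 8 genes and Pdcd1 in CD8 and CD4, from the mean over single cells (filled) and from the single population libraries (open); dotted lines mark -1 and 1. In CD8 every open symbol of the 8 genes lies to the right of its filled one, and Cd160 lies at -1.34 in single cells and 1.24 in the population libraries.

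Between cell types, Cd160 was the 1 gene of 8 at least 1 higher in CD8 than CD4 cells in both genotypes, by 2.71 in WT and 1.35 in KO, where 2.72% of genes tested were. No member was at least 1 higher in CD4 cells in both genotypes, against 0.822% of genes tested. Cd274 came nearest, at -0.92 in WT and -1.27 in KO for CD8 minus CD4. Cd244 differed by 1.31 and 0.56, and Lilrb4 by 1.08 and 0.38. The population libraries gave Cd160 6.57 and 5.20 higher in CD8, and Lilrb4 lower in CD8, at -1.16 in WT and -1.29 in KO, opposite in sign to its single-cell difference. Within CD4 cells Cd274 was above 0 in 16 of 30 WT cells with Foxp3 and 15 of 49 without, and in 21 of 39 and 13 of 39 KO cells. It was likewise found in 13 of 25 CD4 WT and 13 of 22 CD4 KO cells with at least 3 markers of other cell types, and in 18 of 54 and 21 of 56 of the others.

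The fixed list of 19 partners, adaptors and interferon factors of these receptors was mixed between the CD8 labels. Of 17 tested, 2 were at least 1 higher in CD8 KO, where 5.94% of all genes tested were: Ptpn6 (the gene of SHP-1) by 1.73 and Cd48 by 1.14. Another 2 were at least 1 lower, where 3.82% of all genes tested were: Sh2d1a at -2.13 and Itgav at -1.12. Sh2d1a encodes SAP, the adaptor that links CD244 and other SLAM receptors to the kinase Fyn, and Itgav encodes an integrin chain. Their medians were 0.16 for the list and -0.08 for all genes. In CD4 cells 4 of 16 tested were at least 1 higher in KO, where 7.73% of all genes were, and 0 lower, where 0.342% were. Among those higher were Irf1 by 2.12, Dok2 by 1.42 and Ptpn6 by 1.05. Irf1 is an interferon factor that induces Cd274, and Dok2 is an adaptor of the CD200 receptor. The list's median was 0.53, against 0.17 for all genes. Sh2d1b1 was at 0 in every kept cell.

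Some of these partners had a higher rho with Pdcd1 than any of the 8 genes. In CD8 WT cells 11 of 15 tested reached a rho of 0.2, as did 52.4% of all genes, and 6 a partial rho of 0.2, as did 7.65%, led by Sh2d1a (0.64, partial 0.46) and Itgav (0.63, partial 0.40). Counts were 3 of 17 in CD8 KO, 5 of 16 in CD4 WT and 2 of 16 in CD4 KO, beside 13%, 19.7% and 7.36% of all genes. By partial rho they were 3, 1 and 1, beside 7.89%, 7.57% and 5.32%. Itgav had a rho of 0.43 in CD8 KO and 0.57 in CD4 WT, and 0.05 in CD4 KO. Pdcd1lg2, the gene of the other PD-1 ligand, had a rho of 0.05 in CD8 WT, 0.30 in CD8 KO, 0.29 in CD4 WT and 0.24 in CD4 KO, so in the last 3 groups it lay above Cd274.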

How the data were processed

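RNA of single cells and of 1 population library per group was measured by Smart-seq2. Per the labels' description, the deposited values are FPKM that the authors scaled with TMM factors. Bowtie, RSEM and mm10 are named in the submitters' processing notes, while versions and the annotation are not given in the sources used here. FPKM hides depth, so no count test was used. RSEM divides reads between similar genes, which can move values between paralogs.

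Groups come from the titles. Columns left unmapped numbered 0. Single-cell libraries under 1000 genes above 0 were left out (76). No doublet caller was run, since cells were in separate wells. Levels are log2(FPKM + 1), and differences understate folds of low genes. Genes tested were above 0 in at least 10% of cells of either group, or 1 FPKM or more in either population library. Spearman correlations with Pdcd1 were set against all genes tested. Values of 1 listed gene are not reported here. Fragments per cell were estimated from the steps of low FPKM values, with transcript lengths from GENCODE M21. On simulated data of 150 libraries and 9218 genes, 100% of estimates came within 25% of the truth. Named genes were the members, Pdcd1, 19 partner genes, 4 yardsticks and the 3 most alike genes per member. Members and lists were chosen with earlier results of these data known. Alternatives covered the libraries kept, depth, pseudocount and measure of following. Python 3.11.15, numpy 2.4.6, pandas 2.3.3 and scipy 1.17.1 were used.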

Additional observations from a re-analysis of the deposited data

Results flagged for a closer look

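Cd274 was above 0 in 4 of the 76 libraries left out of every comparison, those with under 1000 genes above 0 (5.26%, exact 95% interval 1.45 to 12.9%). It is given here because a count of 0 would allow up to 3.95%, taken as 3 counts, and any gene seen in 4 such libraries would pass that limit. The exact upper bound for a count of 0 is 4.74%, and both lie within the interval, so the count does not set Cd274 apart from the rest. Btla, Cd160, Lilrb4, Cd101 and Pdcd1 were each above 0 in 1 of the 76 (1.32%), and Cd244, Cd200 and Cd200r1 in 0.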

How the results depend on the processing

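No paired analysis was possible because the groups share no replicate numbers and each genotype and cell type is 1 sample. The count of genes at least 1 lower in CD8 KO cells, 1 as reported, was 0 with every library kept, with a pseudocount of 10 and in the population libraries. It was 2 with at least 2000 genes per cell, with a pseudocount of 0.1 and with the log2 of mean FPKM, and 3 once libraries with no B2m or no Cd3 gene were left out (Cd160, Cd101 and Cd244). The count at least 1 higher in CD8 KO, 0 as reported, was 1 without cells holding 3 or more markers of other types, 1 with a pseudocount of 0.1, 3 with the log2 of mean FPKM and 7 in the population libraries. In CD4 the count at least 1 higher, also 0, was 1 with a pseudocount of 0.1 and 1 in cells matched on genes above 0. It was 4 with the log2 of mean FPKM and 5 in the population libraries. The reported 0 is over the 6 genes tested, without Cd160 and Cd244. The 4 take in Cd244, with a mean of 0.04 FPKM in WT and 13.4 in KO from 2 and 4 positive cells. The 5 take in both Cd160 and Cd244. In the population libraries 21.5% of genes tested were at least 1 higher in KO for CD8 and 17.6% for CD4. For the other alternatives no share over all genes is given, so their counts cannot be read as results about the 8 genes. Cd160 turned from -1.34 to 1.24 in the population libraries of CD8, and lay between -1.89 and -0.83 under the other alternatives.

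The count of genes that followed Pdcd1 in CD8 WT, 3 as reported, was 6 with every library kept and 1 by partial rho. In CD8 KO, 0 as reported, it was 1 with every library kept, 2 with at least 2000 genes, 2 by Pearson r, 1 in matched cells and 1 with genes under 10% of cells also counted, an alternative chosen after seeing the data. In CD4 WT, 2 as reported, it was 1 without cells holding markers of other types. In CD4 KO, 1 as reported, it was 2 with libraries that had no B2m or no Cd3 gene left out, and 0 with at least 2000 genes, without cells holding markers of other types, by partial rho, by Pearson r and in matched cells. Cd244 in CD8 WT had a rho of 0.18 with the same libraries left out, and Lilrb4 0.15 in matched cells. By partial rho, 7.65% of all genes tested reached 0.2 in CD8 WT and 5.32% in CD4 KO. For the other alternatives no share over all genes is given, so their counts cannot be read as results about the 8 genes. The cause of the changes in count and in rho was not tested. Over all alternatives, 11 rho values newly reached 0.2 and 11 no longer did. A count of differences of single genes marked 6 as moved and 1 as turned, but it leaves out further changes of sign. In the population libraries of CD8, Cd101 went from -0.82 to 1.65, Cd244 from -0.46 to 0.56 and Cd200r1 from -0.06 to 1.38. In those of CD4, Cd101 went from -0.46 to 1.77 and Btla from -0.34 to 0.23. Depth limits Cd274 most, since low CD8 values rest on few fragments.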
